A study of Mus musculus with 8 samples.

Results

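Small GTPases of the Ras-like kind and 2 of their exchange factors, 9 genes in all, were followed in the nucleus accumbens, the ventral part of the striatum that takes part in reward. The tissue came from male C57BL/6 mice that had received morphine or, as controls, saline. The 9 genes, out of 22337 in the deposited table, were chosen by symbol: the Ras-like GTPase genes Rasl11a, Rasl11b and Rasl10a, the Rasd genes Rasd1 and Rasd2, the RGK genes Gem and Rem2, and the exchange factor genes Rasgrp1 and Rasgrp2. Rasl11a, Rasl11b and Rasd2 had been picked for their change between these same libraries, so their differences are given as a description with no test. The other 6 came in through gene family, as listed beside them in the same choice. There were 4 morphine libraries and 4 saline libraries, made from total RNA by oligo-dT priming and template switching. Morphine, an opioid drug, works chiefly through the mu opioid receptor. The series title calls the exposure chronic, and neither its dose nor its schedule is known here. The labels leave unsaid whether each replicate was its own animal. The p-values therefore measure only how far these libraries spread, which may be technical in part.

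Small GTPases of the Ras superfamily are switches that are active when bound to GTP and inactive when bound to GDP. Exchange factors load GTP, and GTPase-activating proteins speed its loss. Rasd and Rasl proteins are Ras-like GTPases, and RGK proteins bind the beta subunits of voltage-gated calcium channels and reduce calcium current. RasGRP proteins, also called CalDAG-GEFs, are exchange factors that respond to calcium and diacylglycerol, with Rasgrp1 acting mainly on Ras and Rasgrp2 mainly on Rap1. Rasd2, known as Rhes, and Rasgrp2 are known for high expression in striatal projection neurons.

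Levels are FPKM, fragment numbers scaled to transcript length and to all mapped fragments of the library, as the authors deposited them. A log2 change is the mean of log2(FPKM + 1) in morphine libraries minus that in saline libraries. On that scale the change of a gene at a few FPKM is understated. FPKM sums lay between 486547.6 and 501627.6 in the morphine libraries and between 480003.6 and 540104.1 in the saline libraries. The lowest values of single-transcript genes lay on steps of 1 fragment, which gave an estimated depth, in units of 1e6 fragments, of 13.5 to 19.3 per morphine library and 12.3 to 15.2 per saline library. One saline library, replicate 3, stood apart. In 26 striatal neuron markers the summed level was 666 to 806 FPKM in the morphine libraries, 6769 FPKM in saline replicate 3 and 1554 to 1888 FPKM in the other saline libraries. In 14 cortical glutamatergic markers it was 421 to 516 FPKM in the morphine libraries, 129 FPKM in saline replicate 3 and 375 to 428 FPKM in the other saline libraries. No marker of either list was at 0 in every library. The log2 change of each of the 9 genes is given with and without that library. Leaving it out is a check on 1 library and does not mark it as faulty. Its striatal sum was the highest and its cortical sum the lowest of all libraries. Which libraries held the most accumbens tissue was not tested.

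The stretches of DNA just before 4 of the genes are shown as examples of opposite differences: Rasl11a and Rasl11b, the 2 genes higher in all morphine libraries, and Rasd2 and Rem2, 2 of the 4 genes lower in all of them. Rasgrp1 and Rasgrp2 are the other 2 of those 4. They are RefSeq sequences of GRCm38.p6, all on the plus strand, 5' to 3', and end at the base before the first annotated base of the gene. Rasl11a lies at chr5:146844821-146845070, Rasl11b at chr5:74195076-74195285, Rasd2 at chr8:75213694-75213943 and Rem2 at chr14:54475850-54476099. The Rasl11b window is shorter because its RefSeq start lies inside the annotated gene. Capitals mark matches on either strand to 1 of 8 short motifs named after the sequences.
Rasl11a: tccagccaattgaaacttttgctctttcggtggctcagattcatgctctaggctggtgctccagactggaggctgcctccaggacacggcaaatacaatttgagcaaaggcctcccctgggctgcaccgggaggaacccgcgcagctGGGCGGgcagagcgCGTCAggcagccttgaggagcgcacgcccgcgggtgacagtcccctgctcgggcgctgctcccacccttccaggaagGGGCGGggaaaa
Rasl11b: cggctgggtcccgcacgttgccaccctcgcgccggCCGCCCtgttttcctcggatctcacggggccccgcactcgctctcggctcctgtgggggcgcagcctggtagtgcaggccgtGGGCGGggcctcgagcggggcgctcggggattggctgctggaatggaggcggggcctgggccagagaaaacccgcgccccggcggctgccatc
Rasd2: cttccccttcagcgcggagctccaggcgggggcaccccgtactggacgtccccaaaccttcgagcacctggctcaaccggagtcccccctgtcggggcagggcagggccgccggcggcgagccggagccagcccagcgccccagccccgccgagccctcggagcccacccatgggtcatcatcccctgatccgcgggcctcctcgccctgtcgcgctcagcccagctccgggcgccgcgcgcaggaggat
Rem2: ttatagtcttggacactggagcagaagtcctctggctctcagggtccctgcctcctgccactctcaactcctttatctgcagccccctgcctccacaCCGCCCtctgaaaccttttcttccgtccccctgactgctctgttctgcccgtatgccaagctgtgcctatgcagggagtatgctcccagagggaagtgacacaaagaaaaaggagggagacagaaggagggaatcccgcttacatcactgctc

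The motifs searched on both strands in the 250 bases before each RefSeq start were the full cAMP response element (TGACGTCA), its core (TGACG), the AP-1 site (TGANTCA), the Nr4a element (AAAGGTCA), the clock-type E-box (CACGTG), the GC box (GGGCGG), the TATA box (TATAAA) and the serum response CArG box. The core is contained in the full cAMP response element. Rasl11a was the 1 gene of the 7 members with a promoter entry to hold a cAMP element core, 89 bases before its start. Of all 32851 promoters searched, 17.8% held that core. GC boxes were found 103 and 12 bases before Rasl11a, 215 and 133 bases before Rasl11b and 153 bases before Rem2. Rasl10a, Rasgrp1 and Rasgrp2 held GC boxes as well, so Rasd2 alone of the 7 members held none. Of all promoters, 32.7% held at least 1. The Rasd2 window held none of the 8 motifs. In the 250 bases before the RefSeq start, CpG dinucleotides numbered 15 for Rasl11a, 30 for Rasl11b, 27 for Rasd2 and 4 for Rem2, where the median over all promoters was 6. No full cAMP element (1.55% of all promoters), AP-1 site (6.75%), Nr4a element (1.34%), E-box (6.02%), TATA box (12.4%) or CArG box (1.47%) was matched in any of these 7 members. A match is a run of letters and was not examined for binding.

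Rasl11a and Rasl11b, paralogues on chromosome 5, were both higher in every morphine library than in every saline library, as were 6.56% of all 12536 tested genes. The protein of Rasl11a is known in the nucleolus, where it takes part in transcription of ribosomal RNA genes; that of Rasl11b is less studied. Rasl11a had 7.86, 6.25, 12.7 and 7.20 FPKM in morphine libraries, against 3.56, 2.16, 2.06 and 2.38 FPKM in saline libraries. Its lowest morphine value lay above its highest saline value. Means were 8.5 ± 2.87 FPKM in morphine and 2.54 ± 0.69 FPKM in saline (SD, n = 4 each), with a log2 change of 1.40 ± 0.21 (SE) and of 1.33 ± 0.23 without saline replicate 3. As the estimated depth puts about 35 fragments of Rasl11a in its lowest library, counting error there was about 16.8%.

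Rasl11b had 48.7, 63.5, 77.8 and 103 FPKM in morphine libraries, against 33.0, 32.6, 18.9 and 34.0 FPKM in saline libraries. The groups did not overlap, and the 3 saline values other than replicate 3 lay close together. Means were 73.3 ± 23.2 FPKM in morphine and 29.6 ± 7.16 FPKM in saline (SD, n = 4 each). The log2 change was 1.26 ± 0.24 (SE), and 1.07 ± 0.21 without saline replicate 3, which held the lowest value. The level of Rasl11b was 6.14 to 14.3 times that of Rasl11a within morphine libraries and 9.19 to 15.1 times within saline libraries (9.26 to 15.1 without replicate 3), ranges that overlap. Leaving out any 1 library kept the log2 change of Rasl11a between 1.21 and 1.53 and that of Rasl11b between 1.07 and 1.44.

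The genes next to the pair were read in the same libraries. Rasl11a (ENSMUSG00000029641, chromosome 5, 146845071 to 146847726, plus strand, GRCm38) lies 8039 bases from the ribosomal protein gene Rpl21, whose log2 change was 0.17 ± 0.12 (SE; limma adjusted p = 0.481), and 100931 bases from the transcription factor gene Gtf3a, at 0.38 ± 0.14 (limma adjusted p = 0.168). Rasl11b (ENSMUSG00000049907, chromosome 5, 74195286 to 74199481, plus strand) lies 5335 bases from Scfd2, with 0.03 ± 0.14 (limma adjusted p = 0.943), and 126855 bases from the deubiquitinase gene Usp46. Usp46 had 39.6 ± 3.39 FPKM in morphine and 28.4 ± 3.30 FPKM in saline (SD, n = 4 each), with groups that did not overlap, and missed the threshold (limma adjusted p = 0.0566).

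Rasl10a (ENSMUSG00000034209, chromosome 11, 5058128 to 5060385, plus strand), a Ras-like GTPase gene whose human product is nucleolar, did not pass. It had 86.8, 58.1, 82.9 and 77.4 FPKM in morphine libraries, against 59.5, 53.9, 13.7 and 40.8 FPKM in saline libraries. One morphine value lay inside the saline range, and the lowest value of all was saline replicate 3. Its log2 change was 1.02 ± 0.38 (SE; limma adjusted p = 0.169, adjusted over all tested genes) and 0.56 ± 0.17 without saline replicate 3 (limma adjusted p = 0.108). Exons of Gas2l1 overlap those of Rasl10a on the other strand, and no strand marking is stated for the libraries, so reads of the 2 genes cannot be told apart there. Gas2l1 had 15.1 ± 6.94 FPKM in morphine and 17.9 ± 4.05 FPKM in saline (SD, n = 4 each).

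**Figure D1:**
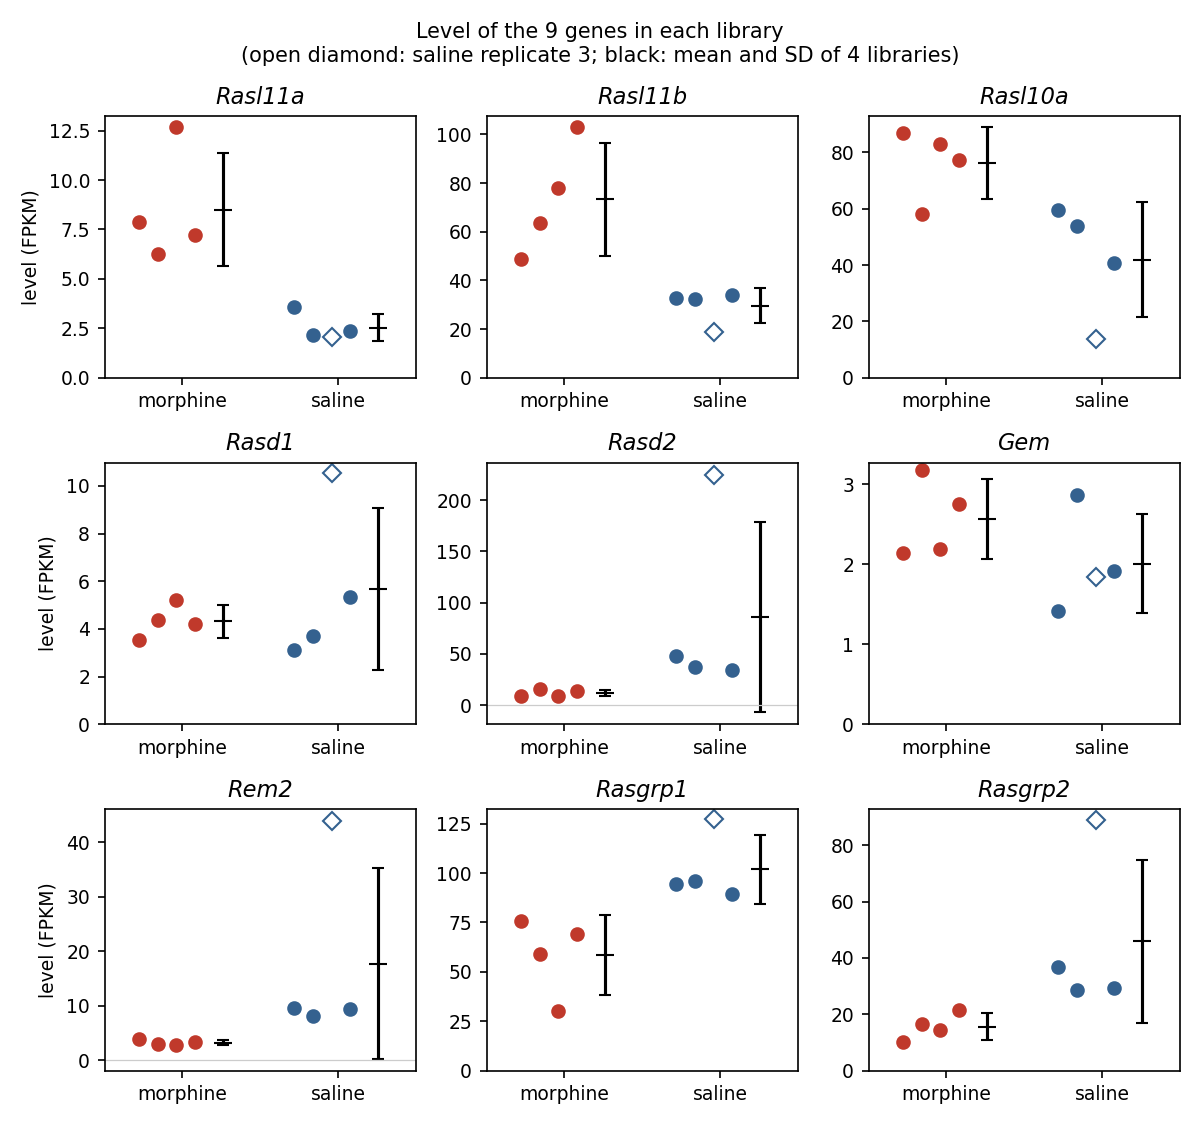
Level of each of the 9 genes in FPKM, with a panel and a linear axis per gene; points are libraries (morphine in red, saline in blue, saline replicate 3 as an open diamond) and black bars are the mean and SD of 4 libraries. Rasl11a and Rasl11b lay higher in all morphine libraries, Rasd2, Rem2, Rasgrp1 and Rasgrp2 lay lower in all of them, and saline replicate 3 was the highest library for Rasd2 (225 FPKM) and Rem2 (43.9 FPKM).

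Rasd2 was lower in every morphine library, as were 6.1% of all tested genes, and had the largest difference of the 9 genes. Its product Rhes is known to dampen receptor-driven cAMP signalling in striatal neurons and to bind mTOR and mutant huntingtin. Rasd2 (ENSMUSG00000034472, chromosome 8, 75213944 to 75224113, plus strand) had 9.13, 15.4, 9.29 and 13.9 FPKM in morphine libraries, against 47.5, 36.8, 225 and 34.0 FPKM in saline libraries. All morphine values were under the lowest saline value, and saline replicate 3 was 6.11 times the median of the other saline libraries. Means were 11.9 ± 3.23 FPKM in morphine and 85.9 ± 93.0 FPKM in saline, or 39.4 ± 7.13 FPKM in the 3 saline libraries without replicate 3 (SD, n = 4, 4 and 3). The log2 change was -2.29 ± 0.50 (SE) with all libraries and -1.66 ± 0.20 without saline replicate 3. Its neighbour Mcm5, a replication licensing gene 85505 bases away, had a log2 change of -0.17 ± 0.14 (limma adjusted p = 0.546), and the predicted gene Gm10358, 181227 bases away, one of -0.32 ± 0.20 (limma adjusted p = 0.412).

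Striatal neuron markers moved in the same libraries as Rasd2. Of 24 tested markers 13 fell with morphine and 0 rose (limma), where 1.48% of all tested genes fell and 1.04% rose. With saline replicate 3 left out, 17 fell and 0 rose, where 1.4% of all tested genes fell and 0.965% rose. Isl1, among both the 13 and the 17, had at most 0.96 FPKM in morphine libraries. Drd2, among the 17, had at most 0.55 FPKM there. Both were tested through their saline values alone. The median log2 change of the 24 markers was -2.16, or -1.61 without saline replicate 3, and that of all tested genes was 0.012. In these bulk samples fewer cells of a type and less RNA per cell cannot be told apart. With the mean of that list as a covariate the log2 change of Rasd2 was 0.012 ± 0.43 (SE). The part of tissue makeup in the difference was not tested.

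Rasd1, which is induced by glucocorticoids and binds the neuronal nitric oxide synthase adaptor Nos1ap, did not follow Rasd2. It had 3.53, 4.37, 5.21 and 4.21 FPKM in morphine libraries, against 3.10, 3.71, 10.6 and 5.34 FPKM in saline libraries. The groups overlapped, and the highest value was again saline replicate 3. The log2 change was -0.21 ± 0.28 (SE; limma adjusted p = 0.722), with a sign that turned without saline replicate 3 (0.093 ± 0.18, limma adjusted p = 0.838). Of 9 tested glucocorticoid-induced genes 0 passed by limma, and their median log2 change was -0.25. The level of Rasd2 was 1.78 to 3.54 times that of Rasd1 within morphine libraries and 6.37 to 21.3 times within saline libraries, or 6.37 to 15.3 times without saline replicate 3.

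Of the RGK genes, Rem2 lay apart between the groups and Gem did not. Rem2, whose expression follows neuronal activity and whose product limits dendrite branching in rodent neurons, had 3.87, 2.99, 2.74 and 3.35 FPKM in morphine libraries, against 9.55, 8.11, 43.9 and 9.35 FPKM in saline libraries. The groups did not overlap, and the 3 other saline values lay close together. Means were 3.24 ± 0.49 FPKM in morphine and 17.7 ± 17.5 FPKM in saline, or 9.0 ± 0.78 FPKM without saline replicate 3 (SD, n = 4, 4 and 3). The log2 change of -1.79 ± 0.43 (SE) missed the threshold (limma adjusted p = 0.0581). Without saline replicate 3 it was smaller, -1.24 ± 0.14, with a smaller SE, and passed (limma adjusted p = 0.005). The range of the adjusted p over the alternatives was 0.005 to 0.691.

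Gem, an RGK gene first known as induced by mitogens in human T cells, had the lowest mean of the 9 in both groups. It had 2.14, 3.18, 2.19 and 2.75 FPKM in morphine libraries, against 1.41, 2.87, 1.84 and 1.91 FPKM in saline libraries. The groups overlapped, and saline replicate 3 lay inside the range of the others. Its log2 change was 0.26 ± 0.17 (SE; limma adjusted p = 0.447), and 0.24 ± 0.19 without saline replicate 3 (limma adjusted p = 0.565). An estimated 45 fragments in its lowest library give a counting error of about 14.9% for that library. The spread between libraries was wider, with an SD of 19.3% of the mean in morphine and 30.7% in saline. Of 12 tested activity-induced genes 3 rose (Fos, Arc and Ier2) and 0 fell by limma, where 1.04% of all tested genes rose. Leaving out saline replicate 3, 7 rose (Fos, Fosb, Junb, Egr1, Egr2, Arc and Nr4a1) and 0 fell, where 0.965% of all tested genes rose, and Ier2 did not pass (limma adjusted p = 0.0597). The list's median was 0.89 on the log2 scale, or 0.93 without that library. The level of Rem2 was 0.94 to 1.81 times that of Gem within morphine libraries and 2.83 to 23.9 times within saline libraries, or 2.83 to 6.77 times without saline replicate 3.

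Both RasGRP exchange factor genes were lower in every morphine library than in every saline library, and neither passed. Rasgrp2 (ENSMUSG00000032946, chromosome 19, 6399340 to 6415216, plus strand), known from striatal neurons and from platelets, had 10.1, 16.5, 14.3 and 21.5 FPKM in morphine libraries, against 36.9, 28.6, 88.9 and 29.2 FPKM in saline libraries. Its log2 change was -1.38 ± 0.34 (SE; limma adjusted p = 0.0616). Without saline replicate 3, which was 3.04 times the median of the others, it was -1.01 ± 0.21 and passed (limma adjusted p = 0.0395). The adjusted p lay between 0.0395 and 0.967 over the alternatives. Exons of the processed transcript Gm14965, which has no value here, overlap those of Rasgrp2 on the other strand. With no strand marking stated, reads of these genes cannot be told apart there.

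Rasgrp1, known for Ras activation in T cells and for expression in several forebrain regions, had 75.8, 59.1, 30.2 and 68.9 FPKM in morphine libraries, against 94.3, 96.1, 127 and 89.2 FPKM in saline libraries. The groups did not overlap, and the lowest value was morphine replicate 3. Its log2 change was -0.85 ± 0.25 (SE; limma adjusted p = 0.0969), and -0.57 without morphine replicate 3 (limma adjusted p = 0.139). It was -0.74 ± 0.26 without saline replicate 3 (limma adjusted p = 0.165). The level of Rasgrp1 was 2.11 to 7.52 times that of Rasgrp2 within morphine libraries and 1.43 to 3.36 times within saline libraries, or 2.56 to 3.36 times without saline replicate 3. The T cell genes Cd3e, Cd3d, Cd3g and Cd8a reached at most 0.06 FPKM in morphine libraries and 0.16 FPKM in saline libraries. The T cell marker list of 8 genes summed to 1.96 to 2.43 FPKM in morphine and 3.72 to 25.7 FPKM in saline, where Cd4 alone made 23.8 FPKM of saline replicate 3. The platelet list of 6 genes summed to 2.15 to 4.00 FPKM in morphine and 3.93 to 9.85 FPKM in saline. Pf4 alone of that list was tested, with means of 1.02 FPKM in morphine and 4.47 FPKM in saline (limma adjusted p = 0.072). In the rest of the platelet list the groups overlapped, at no more than 1.47 FPKM in any library.

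By limma, 0 of the 6 members that had not been picked for their change passed an adjusted p under 0.05, where 2.52% of all 12536 tested genes did. At an unadjusted p under 0.05 there were 4 of 6, Rasl10a, Rem2, Rasgrp1 and Rasgrp2, where 20.1% of all tested genes had one. Rem2, Rasgrp1 and Rasgrp2, 3 of the 6, had all morphine values under all saline values, as had 6.1% of all tested genes. Without saline replicate 3, 2 of the 6 passed, Rem2 and Rasgrp2, and 2.36% of all tested genes did. All 9 members had at least 1 FPKM in all 8 libraries, so none entered the test through 1 group alone.

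**Figure D2:**
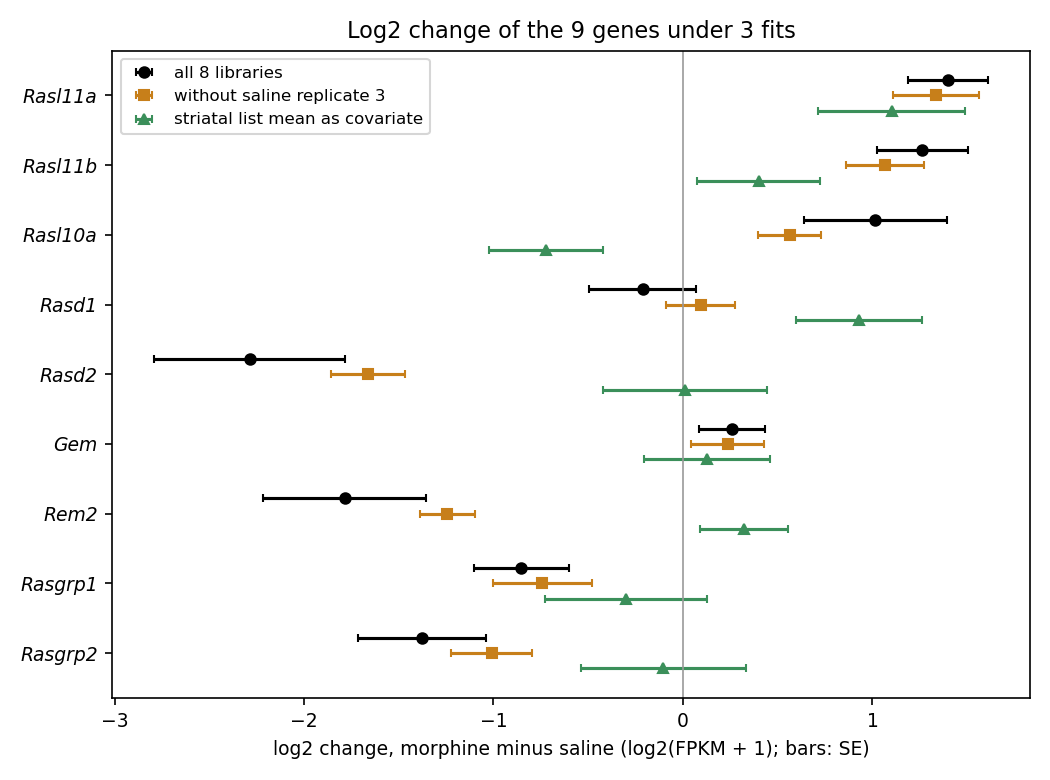
Log2 change of the 9 genes, morphine minus saline on the log2(FPKM + 1) scale, with SE bars, from all 8 libraries (black), without saline replicate 3 (orange) and with the mean of the striatal marker list as a covariate (green). Without saline replicate 3 the sign changed for Rasd1 alone; with the covariate Rasd2 stood at 0.012 and Rasl11a at 1.10.

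Within the saline group alone, saline replicate 3 lay outside the range of the other saline libraries in 8 of the 9 genes, as in 60.1% of all tested genes. It was above the other saline libraries in 5 members (Rasd2, Rem2, Rasgrp2, Rasd1 and Rasgrp1) and below them in 3 (Rasl11a, Rasl11b and Rasl10a), with Gem inside. It was at least 2 times the median of the others in 4 members, Rasd2, Rem2, Rasgrp2 and Rasd1, as it was in 3.52% of all tested genes. It was at most 0.5 times that median in 1 member, Rasl10a, as in 3.81% of all tested genes. With the striatal list mean as a covariate the log2 changes were 1.10 ± 0.39 for Rasl11a, 0.40 ± 0.32 for Rasl11b, -0.72 ± 0.30 for Rasl10a, 0.32 ± 0.23 for Rem2, -0.30 ± 0.43 for Rasgrp1 and -0.10 ± 0.43 for Rasgrp2 (SE), and none of the 6 members not picked passed (limma adjusted p from 0.383 to 0.967). That covariate takes most of its range from the difference between groups and from saline replicate 3.

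**Figure D3:**
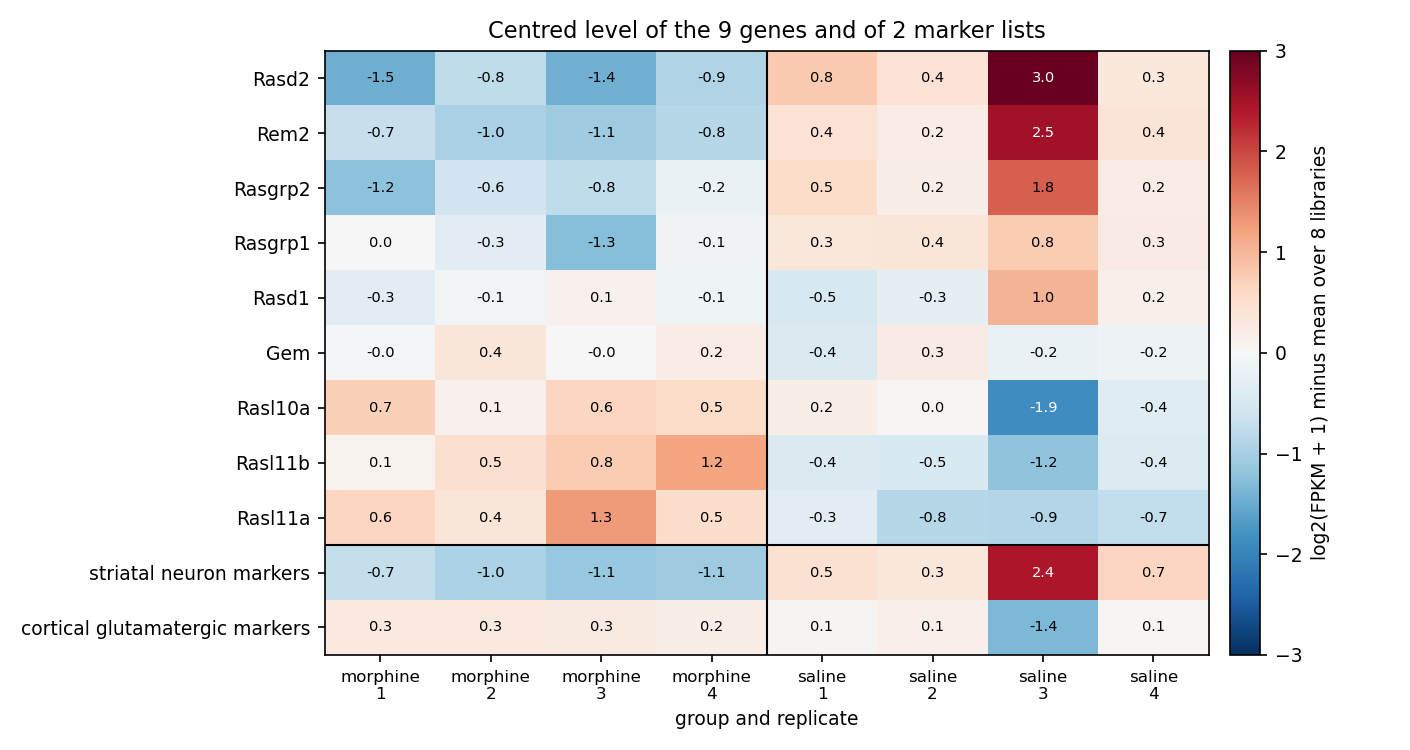
Level of the 9 genes and mean of 2 marker lists in each library, as log2(FPKM + 1) minus the mean over the 8 libraries (colour and number), morphine left and saline right. Rasd2, Rem2, Rasgrp2 and Rasgrp1 shared with the striatal list a low level in morphine libraries and the highest level in saline replicate 3. Rasl10a, Rasl11b, Rasl11a (by a small margin) and the cortical list were lowest there.

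The order of mean levels was not the same in the 2 groups. In morphine libraries the highest means were those of Rasl10a (76.3 FPKM), Rasl11b (73.3 FPKM) and Rasgrp1 (58.5 FPKM), whose ranges overlapped one with the next. A gap followed before Rasgrp2 (15.6 FPKM), Rasd2 (11.9 FPKM) and Rasl11a (8.5 FPKM), and another before Rasd1 (4.33 FPKM), Rem2 (3.24 FPKM) and Gem (2.56 FPKM). In saline libraries Rasgrp1 led (102 FPKM), followed by Rasd2 (85.9 FPKM), Rasgrp2 (45.9 FPKM), Rasl10a (42.0 FPKM), Rasl11b (29.6 FPKM), Rem2 (17.7 FPKM), Rasd1 (5.68 FPKM), Rasl11a (2.54 FPKM) and Gem (2.01 FPKM). With all 4 saline libraries every gene overlapped the next in that order, which rested on replicate 3. Without it the order was Rasgrp1 (93.2 FPKM), Rasl10a (51.4 FPKM), Rasd2 (39.4 FPKM), Rasl11b (33.2 FPKM), Rasgrp2 (31.6 FPKM), Rem2 (9.0 FPKM), Rasd1 (4.05 FPKM), Rasl11a (2.7 FPKM) and Gem (2.06 FPKM). Ranges then lay apart between Rasgrp1 and Rasl10a, between Rasgrp2 and Rem2 and between Rem2 and Rasd1, and the other neighbours overlapped.

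Genes with the most similar profiles over the 8 libraries were looked up for the 6 members with a log2 change of at least 1 in size, by the root mean square difference of centred log2 levels among 12134 protein-coding genes. For Rasl11a these were Ldoc1 (0.20), the mitotic phosphatase gene Cdc25c (0.26) and the heat shock gene Hspa1a (0.27). For Rasl11b they were the prokineticin receptor gene Prokr2 (0.20), the neuronal transcription factor gene Neurod1 (0.24) and the protease gene Prss30 (0.25). Rasl11b itself was 45th in the order for Rasl11a. Cdc25c had 1.79 to 5.36 FPKM in morphine libraries and at most 0.55 FPKM in saline libraries. It was thus tested through its morphine values alone. Prss30 was also low in saline libraries, at 0.18 to 1.07 FPKM. For Rasl10a the nearest were the synaptic syntaxin gene Stx1a (0.17), the Wnt pathway agonist gene Rspo3 (0.17) and Ccn3 (0.21).

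For Rasd2 the nearest were Slc35d3 (0.35), Ecel1 (0.38) and the vesicular transporter gene Slc10a4 (0.38), with Rem2 4th (0.39) and Rasgrp2 37th (0.58). For Rem2 they were the phosphodiesterase gene Pde1b (0.16), the striatal adenylyl cyclase gene Adcy5 (0.19) and the retinol transporter gene Stra6 (0.20), with Rasd2 34th. Adcy5 is also on the striatal marker list. Pde1b had 35.0 to 39.9 FPKM in morphine libraries, 362 FPKM in saline replicate 3 and 70.0 to 75.3 FPKM in the other saline libraries. For Rasgrp2 they were the guanylyl cyclase gene Gucy1a1 (0.25), the calcium channel subunit gene Cacna2d2 (0.26) and the growth factor gene Tgfa (0.27). These differences measure likeness only, in libraries that share the same group difference.

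The rest of the Ras pathway was close to the background. Of 100 tested genes in 6 lists, 1 rose and 1 fell, or 2% against 2.52% of all tested genes, and the median log2 change was 0.02. Groups did not overlap in 12 of the 100, against 12.7% of all tested genes. Ralgps2, an exchange factor gene for Ral GTPases, had 27.1 ± 1.88 FPKM in morphine and 16.7 ± 3.36 FPKM in saline (SD, n = 4 each; log2 change 0.68 ± 0.14 SE, limma adjusted p = 0.0441). Akt2, a kinase gene downstream of phosphoinositide 3-kinase, had 39.0 ± 3.47 FPKM in morphine and 59.9 ± 8.64 FPKM in saline (SD, n = 4 each; log2 change -0.60 ± 0.12 SE, limma adjusted p = 0.043). Under upper quartile scaling, and without mitochondrially encoded genes, the 2 calls were both lower, Akt2 and the exchange factor gene Rasgef1c, and Ralgps2 did not pass (limma adjusted p = 0.0527 and 0.0586). Both calls also depended on single libraries: without saline replicate 3 Ralgps2 passed (adjusted p = 0.0426) and Akt2 did not (adjusted p = 0.0573), and without morphine replicate 1, 2, 3 or 4 or saline replicate 1 or 2 neither passed (adjusted p 0.0579 to 0.135).

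No tested close relative of the members passed. Of 9 other tested Ras-like genes none was past the threshold (median log2 change -0.07). None of the 9 was an RGK gene, as the other RGK genes listed were too low to be tested. Rergl, a Ras-like gene at a low level, had 1.51 ± 0.51 FPKM in morphine and 0.39 ± 0.49 FPKM in saline (SD, n = 4 each; limma adjusted p = 0.0794). Rasl10b, the paralogue of Rasl10a, had 20.0 ± 5.12 FPKM in morphine and 33.3 ± 11.5 FPKM in saline (SD, n = 4 each; limma adjusted p = 0.15), a difference of opposite sign to that of Rasl10a. None of 15 classical Ras, Rap, Ral and Rheb genes passed (median 0.0018), the smallest p belonging to Rheb, the GTPase that activates mTOR (log2 change 0.44 ± 0.13 SE, limma adjusted p = 0.0927), and Rap2a (0.36 ± 0.14, limma adjusted p = 0.194).

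Regulators and partners followed the same pattern of few calls. Of 23 other exchange factor genes 22 did not pass (median 0.07). None of 19 GTPase-activating and inhibitory genes passed (median 0.03), with Rasal1 at 0.59 ± 0.17 (log2, SE; limma adjusted p = 0.0908) and Rasa1 at 0.57 ± 0.19 (limma adjusted p = 0.142) the nearest. Of 19 effector kinase genes 18 did not pass (median -0.0047). None of 15 partner genes of Rasd and RGK proteins passed (median 0.14), with the calcium channel beta subunit gene Cacnb3 at 0.39 ± 0.11 (log2, SE; limma adjusted p = 0.0945) and the nitric oxide synthase gene Nos1 at 0.56 ± 0.20 (limma adjusted p = 0.156) the nearest.

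**Figure D4:**
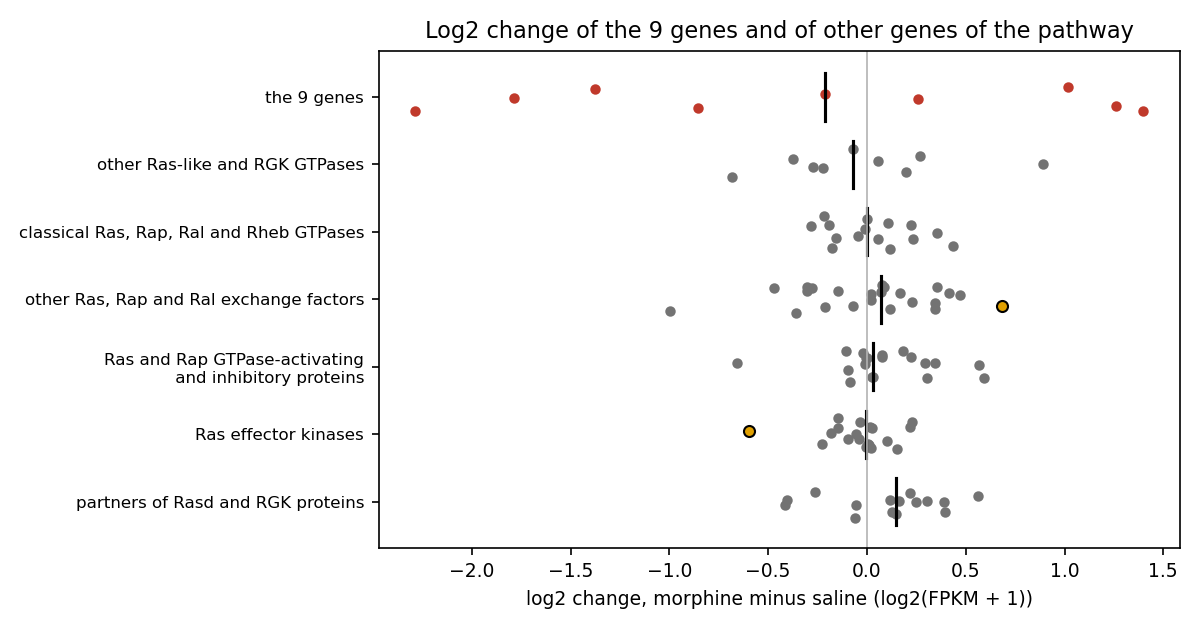
Log2 change, morphine minus saline on the log2(FPKM + 1) scale, of the 9 genes (red) and of tested genes in 6 other lists of the pathway (grey; past the threshold in yellow), with each list's median as a black line. The 9 genes, 3 of which were picked for their change, ran from -2.29 to 1.40, while the medians of the other lists lay between -0.07 and 0.14; Ralgps2 and Akt2 are the yellow points.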

How the data were processed

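The authors deposited 1 table of FPKM values, 1 column per library, per the file headers; its values have 2 decimals. The submitters' processing notes name StringTie 1.3.1, RSEM, HISAT2, fastp 0.18.0 and Bowtie2 2.2.8, and the build mm10, without saying in which order or with which annotation or strand setting. FPKM divides out library size and length, so a gene's value also depends on what else the library holds.

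Symbols and 1-based coordinates came from GENCODE M21 (GRCm38), which matched 22232 of 22337 IDs, and all 9 members. Genes with at least 1 FPKM in at least 4 libraries (12536) were fitted as log2(FPKM + 1) with limma 3.58.1 in R 4.3.3, without a block, with empirical Bayes and a mean-variance trend, two-sided; p-values were adjusted by Benjamini-Hochberg over all of them, threshold 0.05. FPKM is not a count, so no count model was used. The members and lists were chosen with earlier results of these data known. Genes named besides the members were those of each pathway list past the threshold, or otherwise its 2 with the smallest p; the 3 nearest profiles; and the nearest protein-coding genes of Rasl11a, Rasl11b and Rasd2. Gas2l1 and Gm14965 were named because their exons overlap those of a member. The activity-induced genes, Nr4a2, Neurod1, Neurod2, Aldoc, Slc2a1, Rasgef1c, Isl1, Drd2, Pf4 and the Cd genes were named after values were seen. The motifs were also chosen after values were seen. The test was checked on simulated data for these 12536 genes. There it found 78.7% of genes changed by 1 and 97% of those changed by 2 (log2), with 5.4% false calls. Whether these rates hold for the real libraries, where leaving out 1 library gave 0 to 450 calls, was not tested.

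The fragment estimate took, per library, the step that best fitted low values of single-transcript genes times their length: 54.7 to 70% of values then lay within 0.1 of a whole number, where evenly spread values give 20%. The step was chosen for that fit. Fragments per gene assume the length of all annotated exons, and counting errors do not cover PCR copies. No pair of libraries was a copy (0.546 to 1.22% of values identical).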

Additional observations from a re-analysis of the deposited data

Results flagged for a closer look

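Of 18 groups of 4 values (9 genes, each in morphine and in saline libraries), 4 held a library far from the other 3, and all 4 were saline replicate 3. Chance flags about 1 in 20 such groups, and the 4 values come from 1 library. That library was lowest for Rasl11b (18.9 FPKM, others 32.6 to 34.0) and highest for Rasd2 (225 FPKM, others 34.0 to 47.5), for Rem2 (43.9 FPKM, others 8.11 to 9.55) and for Rasgrp2 (88.9 FPKM, others 28.6 to 36.9). It was also the library with the highest summed striatal markers (6769 FPKM) and the lowest summed cortical markers (129 FPKM). The part of tissue makeup in these values was not tested.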

How the results depend on the processing

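Each result was recomputed under 17 alternatives fixed with the design. Limma called 316 genes (130 higher and 186 lower with morphine). The count was 17 without a filter on low values, 5 with the replicate block, 3 with the striatal covariate, 128 with the cortical covariate and 0 to 450 without 1 library (0 without morphine replicate 3, morphine replicate 4 or saline replicate 2, where 1953, 2136 and 2005 genes had an unadjusted p below 0.05, and 450 once saline replicate 4 was left out). The split was 81 higher and 246 lower under upper quartile scaling, and 77 and 211 without mitochondrially encoded genes. Of the 6 members not picked, 0 passed with all libraries, 1 (Rem2) with a pseudocount of 0.1 and 1 (Rem2) with the cortical covariate, and 0 to 2 without 1 library. The 2 calls among 100 pathway genes, 1 higher and 1 lower, were 0 higher and 2 lower under upper quartile scaling and without mitochondrially encoded genes. They were 0 without a filter (23 at an unadjusted p under 0.05), without the mean-variance trend (23), with the replicate block (20), with the striatal covariate (13) and with the cortical covariate (16), and 0 to 3 without 1 library. In the main fit 22% of the 100 had an unadjusted p under 0.05, against 20.1% of all tested genes. Of all 12536 tested genes, 2493 had one without the trend and 2352 with the replicate block. With the striatal covariate 1284 had one, and with the cortical covariate 2009. Without a filter 3204 of a larger set had one. Of 320 values of single genes, 313 kept their sign. The 7 that turned were, with the striatal covariate, Rasl10a (-0.72), Rasd1 (0.93), Rasd2 (0.012), Rem2 (0.32) and Rasa1 (-0.045), and for Rasd1 the cortical covariate (0.24) and the fit without saline replicate 3 (0.093, in a range of -0.41 to 0.093 without 1 library); the cause was not tested. Same-numbered libraries did not deviate together (correlations over genes 0.052, 0.037, -0.059 and -0.205 for replicates 1 to 4). So few libraries cannot exclude a pairing, and the labels state none. The replicate block left 0 of the 6 members past the threshold. A filter at 5 FPKM left no value for Rasd1 and Gem. Estimated fragments were fewest for Gem, Rasl11a and Rasd1, at 45, 35 and 76 in their lowest library, which adds counting error to their values.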

Other observations

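Markers of some other cell types differed between the groups in the same libraries, and those of others did not. Of all tested genes 1.48% fell and 1.04% rose, or 1.4% and 0.965% without saline replicate 3. Of 10 tested endothelial markers 4 fell and none rose with morphine by limma, or 3 without saline replicate 3, where Slc2a1 did not pass (median log2 change -0.48), and their summed level was 134 to 149 FPKM in morphine libraries and 200.0 to 233 FPKM in saline libraries. Of 11 astrocyte markers 2 fell (median -0.42), or 1 without saline replicate 3, where Aldoc did not pass. None of 11 oligodendrocyte lineage markers passed (median -0.34, all 11 negative), and none of 10 microglia markers (median -0.12). Of 7 tested red cell and neutrophil markers 3 fell, with and without saline replicate 3 (median -0.81). The 3 were the neutrophil genes of the list, at no more than 2.34 FPKM in any morphine library. None of its haemoglobin genes passed, and their groups overlapped. Of 13 tested cortical glutamatergic markers 1 rose (Neurod1) and none fell, with a median of 0.43. When saline replicate 3 was left out, 2 rose (Neurod1 and Neurod2) and none fell, with a median of 0.049. Of 5 claustrum and endopiriform markers 1 rose and 0 fell, with a median log2 change of 0.14, 3 changes positive and 2 negative. The 1 that rose was the nuclear receptor gene Nr4a2, at 19 ± 1.51 FPKM in morphine libraries and 5.51 ± 2.88 FPKM in saline libraries (SD, n = 4 each) (limma adjusted p = 0.0281). The part of these differences in the values of the 9 genes was not tested.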
